A study of Mus musculus with 7 samples.

Results

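The transcripts of 8 enzymes of serine synthesis and one-carbon metabolism were measured by RNA sequencing in libraries labelled as mouse CD8 T cells, wild type or knockout for ACLY, ATP citrate lyase, which makes cytosolic acetyl-CoA from citrate. The enzymes were chosen by name: Phgdh, Psat1, Psph, Shmt1, Shmt2, Mthfd1, Mthfd1l and Mthfd2. All 8 were found among the 16156 genes of the deposited tables, and each had counts in every library. The cells of both genotypes were described as OT-I cells, whose transgenic receptor recognises an ovalbumin peptide, and carried a congenic mark. They were moved into C57Bl/6 mice 1 day before these were infected with Listeria monocytogenes expressing ovalbumin, and were reisolated on day 6 of the infection. KO libraries (ACLY knockout) numbered 3 and WT libraries (wild type) 4. No depletion of the hosts’ own lymphocytes is described, and how the Acly deletion was made or driven is not given in the sources used here. Nothing states that libraries of 1 genotype are from different animals, so p-values measure only the spread between these libraries.

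Proliferating T cells draw on serine both as an amino acid and as a donor of one-carbon units. Phgdh, Psat1 and Psph turn a glycolytic intermediate into serine in sequence. Serine hydroxymethyltransferase, Shmt2 in mitochondria and Shmt1 in the cytosol, then splits serine into glycine and a one-carbon unit bound to tetrahydrofolate. In mitochondria Mthfd2 and Mthfd1l oxidise that unit and release it as formate, and in the cytosol Mthfd1 takes formate up again for purine and thymidylate synthesis. Activated T cells are known to raise the mitochondrial branch, and the transcription factors ATF4 and MYC are known regulators of these genes.

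The library totals, markers and the deleted gene were as follows. Gene counts summed to 45288353 to 75586011 in the WT libraries and to 37473484 to 39692359 in the KO libraries. Acly measured 393, 339, 414 and 276 CPM in the 4 WT libraries and 262, 62.0 and 209 CPM in the 3 KO libraries, in order of replicate. The mean was 177 ± 103 CPM (counts scaled to library size with TMM factors; SD, n = 3) over the KO libraries, against 356 ± 61.4 over the WT libraries (SD, n = 4), and every KO value was under every WT value, that of KO replicate 1 only slightly (edgeR adjusted p = 0.278). The summed CPM of 5 CD8 T cell markers, of which Cd8b1 and Cd3e were the most abundant, was 4709 to 6083 in WT and 1876, 5068 and 4897 in KO replicates 1 to 3. The 10 B cell markers, led by Ighm and Ighd, summed to 314, 237, 343 and 680 CPM in WT replicates 1 to 4. In KO replicates 1 to 3 they summed to 9780, 1154 and 625 CPM. Of these, Pax5 had no count in WT replicates 2 to 4 and counts in every KO library. All 10 had a log2 difference of KO minus WT above 0, against 50.0% of all genes. For 9 of the 10 every KO library was above every WT library, against 9.46% of all genes. The 11 myeloid markers, led by Lyz2 and Csf1r, summed to 38.0 to 54.9 CPM in WT and to 1479, 84.2 and 918 CPM in KO replicates 1 to 3. The 6 red cell markers, led by Hbb-bs and Hba-a1, summed to 1.48 to 468 CPM in WT and to 46338, 6465 and 238 CPM in KO. The 4 measured CD4 T cell markers, led by Cxcr5 and Zbtb7b, summed to 38.5, 38.2, 36.2 and 15.9 CPM in WT replicates 1 to 4. In KO they summed to 388, 33.1 and 53.6 CPM, and WT replicates 1 and 3 had no Cd4 count. The 4 NK cell markers, led by Klrb1c and Klra4, summed to 74.4, 77.8, 52.8 and 2.92 CPM in WT replicates 1 to 4. In KO they summed to 53.3, 17.4 and 23.0 CPM. Of these 4, 3 had a log2 difference of KO minus WT above 0 and 1 below. Every KO library was above every WT library for 2 of them, against 9.46% of all genes. V beta segments of the OT-I family (Trbv12-1 and Trbv12-2) took 99.0%, 99.2%, 99.0% and 84.5% of Trbv counts in WT replicates 1 to 4. In KO replicates 1 to 3 they took 46.7%, 23.2% and 61.8%. WT replicate 4 stood apart in 30 cell cycle genes, with a mean of 7.45 log2 CPM against 3.01 to 3.36 in WT replicates 1 to 3 and 5.53, 3.67 and 2.16 in KO replicates 1 to 3. The part of these markers in the results below was not tested. In bulk libraries such as these, fewer cells of a type and less RNA per cell cannot be told apart.

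RefSeq (GRCm38.p6) held promoter sequences for all 8 genes. The 250 bases before the start site are shown for Phgdh, Psat1 and Mthfd2, which were high together in WT replicate 4, and for Psph, which was not. Shmt1 and Mthfd1 were also high in that library, at 2.65 and 2.28 times the mean of WT replicates 1 to 3, and are not shown. The choice of windows therefore links no motif to those levels. Capitals mark CCAAT or its reverse complement ATTGG, a promoter element bound by NF-Y, chosen after the sequences were read. The windows lie on the minus strand at chr3:98339970-98340219 (Phgdh), chr19:15925060-15925309 (Psat1), chr6:83317605-83317854 (Mthfd2) and chr5:129787254-129787503 (Psph).
Phgdh: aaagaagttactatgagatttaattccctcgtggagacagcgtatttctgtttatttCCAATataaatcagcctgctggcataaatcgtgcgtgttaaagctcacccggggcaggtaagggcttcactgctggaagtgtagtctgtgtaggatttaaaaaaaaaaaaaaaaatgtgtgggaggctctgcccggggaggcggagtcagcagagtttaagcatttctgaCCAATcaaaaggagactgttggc
Psat1: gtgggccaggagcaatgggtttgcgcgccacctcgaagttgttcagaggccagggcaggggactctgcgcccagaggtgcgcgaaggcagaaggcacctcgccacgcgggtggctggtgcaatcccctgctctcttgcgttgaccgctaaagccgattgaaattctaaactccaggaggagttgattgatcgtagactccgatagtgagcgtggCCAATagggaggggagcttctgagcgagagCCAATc
Mthfd2: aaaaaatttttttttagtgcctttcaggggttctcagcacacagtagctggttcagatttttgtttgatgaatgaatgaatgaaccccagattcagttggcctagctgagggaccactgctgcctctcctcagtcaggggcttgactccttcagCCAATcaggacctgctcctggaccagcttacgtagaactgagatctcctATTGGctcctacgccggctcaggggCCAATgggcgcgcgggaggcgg
Psph: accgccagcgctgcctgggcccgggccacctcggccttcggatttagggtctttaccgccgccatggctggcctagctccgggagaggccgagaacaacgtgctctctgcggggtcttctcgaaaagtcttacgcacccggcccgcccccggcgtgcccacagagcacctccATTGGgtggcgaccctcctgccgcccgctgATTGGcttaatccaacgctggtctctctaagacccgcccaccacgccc
The element CCAAT was searched on both strands. It occurred in 6 of the 8 members' windows, all but Shmt2 and Mthfd1l, and in 33.8% of 32851 promoter windows of the same length. Mthfd2 held 3 matches, Phgdh, Psat1 and Psph 2 each, and Shmt1 and Mthfd1 1 each. No member's window held the core of the ATF4 composite element (TGATGNAA, in 3.45% of all windows), the MYC E-box (CACGTG, 6.02%) or the E2F site (TTTCCCGC, 0.895%) on either strand. These are matches of letters and do not show binding, and the absence of letters says nothing about the factor. The 8 members had 9 RefSeq start sites, and for each member the window at the site nearest the GENCODE start was used. The second window of Psat1 held 0 matches of any of these elements. The 32851 windows were not reduced to 1 per gene. The start sites used for Psat1 and Mthfd2 lie inside the gene spans of GENCODE, by 22278 and 8304 bases.

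In levels per kilobase of exon, the mitochondrial Shmt2 was the most abundant of the 8 transcripts and its cytosolic counterpart Shmt1 the least. Over WT replicates 1 to 3, Shmt2 was at 33.0 ± 2.57 CPM per kb and Phgdh at 19.6 ± 0.737 CPM per kb (SD, n = 3), each apart from its neighbours. Psph followed at 14.4 ± 1.02 and Mthfd2 at 11.9 ± 0.220 CPM per kb. Mthfd1l and Mthfd1 did not differ beyond their spread, at 10.7 ± 0.708 and 10.05 ± 0.643 CPM per kb (SD, n = 3). Psat1 was at 5.66 ± 0.153 and Shmt1 at 1.88 ± 0.0687 CPM per kb. In the KO libraries Shmt2 was again first at 46.9 ± 12.04 CPM per kb and Shmt1 last at 4.25 ± 1.09 CPM per kb (SD, n = 3). There Psph stood at 9.25 ± 0.7995 CPM per kb, below Mthfd2 (15.7 ± 1.72), Mthfd1 (14.8 ± 3.17) and Mthfd1l (10.9 ± 1.18). Lengths are the union of all annotated exons, so a gene with long minor isoforms is understated.

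**Figure D1:**
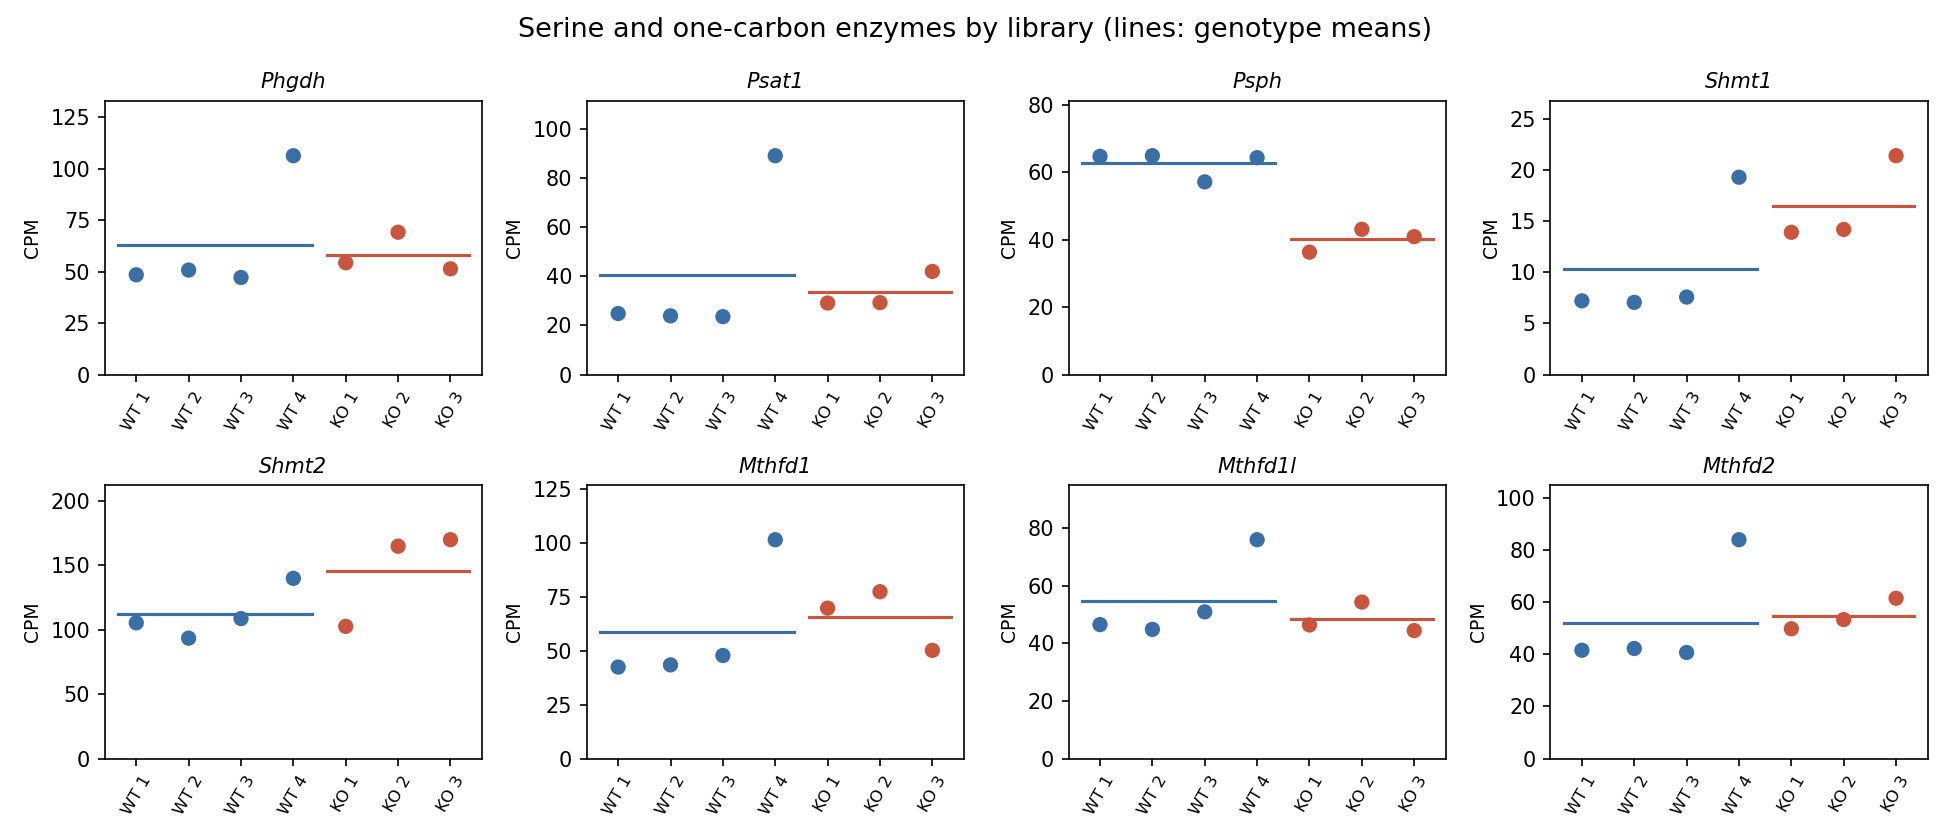
CPM of each of the 8 enzymes (y axis, linear, from 0) in WT replicates 1 to 4 (blue) and KO replicates 1 to 3 (red), with lines at the genotype means. WT replicate 4 lies above the other WT libraries for every gene except Psph, and Psph is the gene for which all KO points lie below all WT points.

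The comparison asks how these enzymes' transcripts differ between the libraries labelled ACLY KO and those labelled WT, with the Acly levels and cell contents given above. With all 7 libraries, Psph was the only member whose KO and WT values did not overlap, with KO below WT (9.03% of all genes), and 0 members had every KO library above WT (9.46% of all genes). No member passed edgeR's quasi-likelihood test at an adjusted p under 0.05, a rule by which 0% of all genes were called in either direction. At an unadjusted p under 0.05, 0 members were higher and 1 was lower, where 11.0% and 7.89% of all genes were. Of the log2 differences 4 were above 0 and 4 below, with a median of -0.02, and 50.0% of all genes were above 0. The 7 other members split the libraries differently: KO replicates lay near or above WT replicates 1 to 3 and, except in Shmt1 and Shmt2, below WT replicate 4.

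Psph (ENSMUSG00000029446), the phosphatase that releases free serine in the last step (chromosome 5, 129765558 to 129787449, minus strand; mm10 with GENCODE M21, as for all coordinates of genes here), had its lowest values in the KO libraries. It was at 64.6, 64.8, 57.1 and 64.3 CPM across WT replicates 1 to 4, against 36.3, 43.0 and 40.9 CPM across KO replicates 1 to 3. Every KO value was under every WT value, as was the case for 9.03% of all genes. The mean was 40.1 ± 3.46 CPM over the KO libraries (SD, n = 3), against 62.7 ± 3.76 over the WT libraries (SD, n = 4), or 0.639 of the WT level. The log2 difference was -0.65 ± 0.13 (SE), with a 95% interval of -0.94 to -0.35 and an edgeR adjusted p of 0.071. DESeq2 called it (adjusted p = 0.00031), where it called 3.61% of all genes lower, and so did edgeR's bias-adjusted fit (adjusted p = 0.0463; 0.477% of all genes lower and 3.08% higher) and limma voom with quality weights (adjusted p = 0.0459; 1.68% of all genes lower). Without WT replicate 4 the log2 difference was -0.63 and without KO replicate 1 it was -0.58, neither called by edgeR (adjusted p = 0.0742 and 0.0835). Psph shares 452 exonic bases with Cct6a on the other strand, and the strand setting of the counting is not known, so its level is uncertain. Cct6a was at 245 ± 31.8 CPM over the KO libraries (SD, n = 3), against 266 ± 27.4 over the WT libraries (SD, n = 4), and the KO and WT values of that gene overlapped.

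The enzymes of the preceding steps did not share this pattern. Phgdh (ENSMUSG00000053398), the dehydrogenase of the entry step (chromosome 3, 98313170 to 98339990, minus strand), was at 48.5, 50.8, 47.2 and 106 CPM across WT replicates 1 to 4, against 54.4, 69.2 and 51.4 CPM across KO replicates 1 to 3. All KO values lay between WT replicates 1 to 3 and WT replicate 4. The log2 difference was -0.12 ± 0.32 (SE; 95% interval -0.86 to 0.63; edgeR adjusted p = 0.884). Psat1 (ENSMUSG00000024640), the aminotransferase that follows it (chromosome 19, 15904678 to 15947337, minus strand), was at 24.8, 23.9, 23.6 and 89.0 CPM in WT and at 29.1, 29.3 and 42.0 CPM in KO. Again the KO libraries lay above 3 WT libraries and below WT replicate 4. Its log2 difference was -0.27 ± 0.52 (SE; interval -1.49 to 0.95; edgeR adjusted p = 0.830). Without WT replicate 4 both signs turned, to 0.26 ± 0.15 for Phgdh and 0.48 ± 0.19 for Psat1 (SE), and neither was called (edgeR adjusted p = 0.369 and 0.210).

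Both serine hydroxymethyltransferases had higher KO means, with overlapping libraries. Shmt1 (ENSMUSG00000020534), the cytosolic enzyme (chromosome 11, 60788104 to 60811718, minus strand), was at 7.21, 7.07, 7.58 and 19.3 CPM across WT replicates 1 to 4, against 13.9, 14.2 and 21.4 CPM across KO replicates 1 to 3. WT replicate 4 sat among the KO libraries, and the other WT libraries lay below all of them. The KO mean was 16.5 ± 4.25 CPM (SD, n = 3) and the WT mean 10.3 ± 6.02 CPM (SD, n = 4), with a log2 difference of 0.68 ± 0.43 (SE; interval -0.32 to 1.68; edgeR adjusted p = 0.448). Without WT replicate 4 the log2 difference was 1.18 ± 0.25 (SE), or 2.27-fold, which edgeR did not call (adjusted p = 0.0753). limma voom with quality weights called it higher with all libraries (log2 1.14, adjusted p = 0.0428), where it called 5.32% of all genes higher. Its estimate lay nearer to edgeR's without WT replicate 4 (1.18) than to edgeR's with all libraries (0.68). The weight that voom gave each library was not examined, so its call is not taken as separate from leaving out WT replicate 4. Shmt1 shares 184 exonic bases with Smcr8 on the other strand, which was at 21.3 ± 9.52 CPM over the KO libraries (SD, n = 3), against 14.9 ± 4.998 over the WT libraries (SD, n = 4), so its level is uncertain.

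Shmt2 (ENSMUSG00000025403), the mitochondrial enzyme (chromosome 10, 127517123 to 127522444, minus strand), was at 105, 93.4, 109 and 140 CPM across WT replicates 1 to 4, against 103, 165 and 170 CPM across KO replicates 1 to 3. KO replicates 2 and 3 lay above every WT library, while KO replicate 1 lay among WT replicates 1 to 3. The log2 difference was 0.38 ± 0.22 (SE; interval -0.12 to 0.89; edgeR adjusted p = 0.398). KO replicate 1 was also the KO library with the highest B cell, myeloid and red cell sums and the lowest sum of CD8 T cell markers. KO replicate 2 had the lowest share of Trbv counts on the OT-I family, at 23.2% against 46.7% in KO replicate 1. The part of cell contents in the Shmt2 values was not tested. Without both KO replicate 1 and WT replicate 4, edgeR called Shmt2 higher (log2 0.73, adjusted p = 0.0238) and Shmt1 higher (log2 1.31, adjusted p = 0.0353), and Psph lower (log2 -0.55, adjusted p = 0.0496). In that setting 5.43% of all genes were called higher and 4.20% lower. It sets 2 KO libraries against 3 WT libraries, left out with earlier results known.

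Of the folate enzymes, Mthfd1 and Mthfd2 had every KO library above WT replicates 1 to 3 (14.5% of all genes), and Mthfd1l did not. With WT replicate 4, set aside here with earlier results known, the KO and WT values of each overlapped. Mthfd2 (ENSMUSG00000005667), the mitochondrial dehydrogenase and cyclohydrolase (chromosome 6, 83305691 to 83325908, minus strand), was at 41.5, 42.2, 40.7 and 83.9 CPM across WT replicates 1 to 4, against 49.8, 53.3 and 61.5 CPM across KO replicates 1 to 3. The KO libraries formed a narrow band above WT replicates 1 to 3 and below WT replicate 4. Its log2 difference was 0.07 ± 0.29 (SE; interval -0.59 to 0.74; edgeR adjusted p = 0.918), and its sign turned in 4 settings that each left out 1 library. Mthfd1 (ENSMUSG00000021048), the cytosolic trifunctional enzyme (chromosome 12, 76255298 to 76319803, plus strand), was at 42.5, 43.5, 47.9 and 102 CPM in WT and at 69.9, 77.5 and 50.3 CPM in KO. KO replicate 3 lay only slightly above WT replicate 3. The log2 difference was 0.16 ± 0.34 (SE; interval -0.64 to 0.97; edgeR adjusted p = 0.847). Mthfd1l (ENSMUSG00000040675), which releases formate in mitochondria (chromosome 10, 3973118 to 4167081, plus strand), was at 46.5, 44.8, 50.9 and 75.9 CPM in WT and at 46.4, 54.3 and 44.4 CPM in KO. KO replicate 2 lay above WT replicates 1 to 3, KO replicate 3 below them and KO replicate 1 among them. The log2 difference was -0.17 ± 0.21 (SE; interval -0.67 to 0.32; edgeR adjusted p = 0.722).

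**Figure D2:**
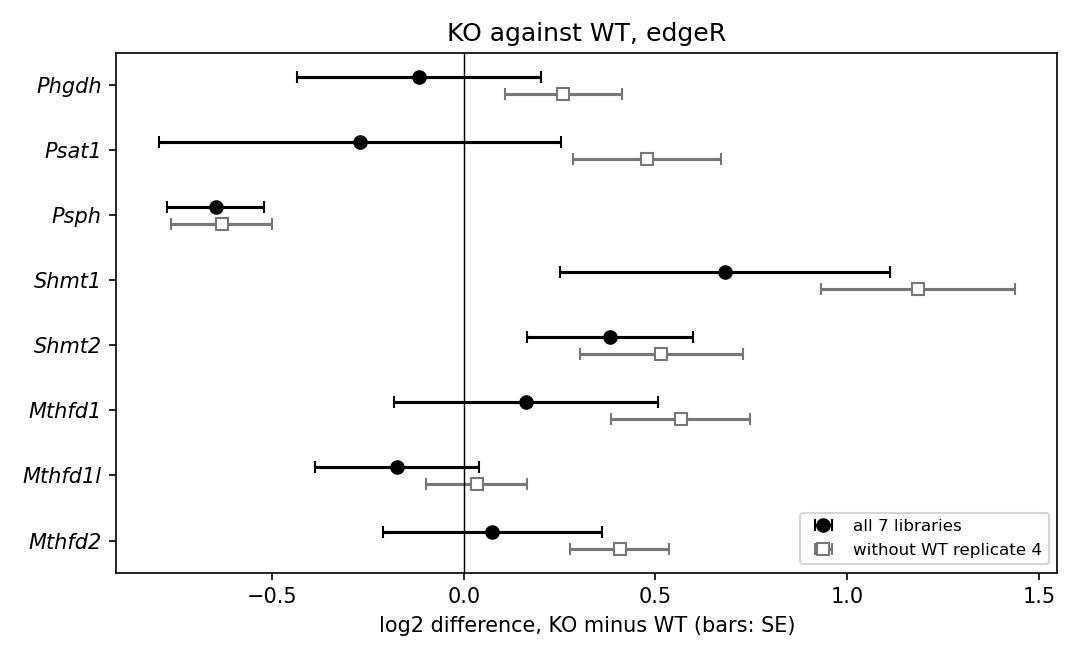
Log2 difference of KO minus WT (x axis) for each enzyme from edgeR, with bars of 1 SE, for all 7 libraries (filled circles) and without WT replicate 4 (open squares). Phgdh, Psat1 and Mthfd1l move from below 0 to above 0 when WT replicate 4 is left out, while Psph stays at -0.65 and -0.63.

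Within WT, replicate 4 held more of 7 of the 8 transcripts than each of WT replicates 1 to 3, where it did so for 38.0% of all genes. Its level was 3.70 times the mean of those replicates for Psat1, 2.65 times for Shmt1, 2.28 times for Mthfd1, 2.18 times for Phgdh and 2.02 times for Mthfd2. Mthfd1l (1.60 times) and Shmt2 (1.37 times) stood less far apart, and Psph was at 1.03 times. So 5 of 8 members stood at 2-fold or more, against 12.9% of all genes. This library is the one with the high cell cycle mean of 7.45 log2 CPM, and the part of that in these values was not tested. Among the KO libraries the members were divided. KO replicate 3, with the lowest cell cycle mean of the 7 libraries (2.16 log2 CPM), had the lowest KO value of 3 members (Phgdh, Mthfd1 and Mthfd1l), the highest of 4 (Psat1, Shmt1, Shmt2 and Mthfd2) and the middle one of Psph.

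**Figure D3:**
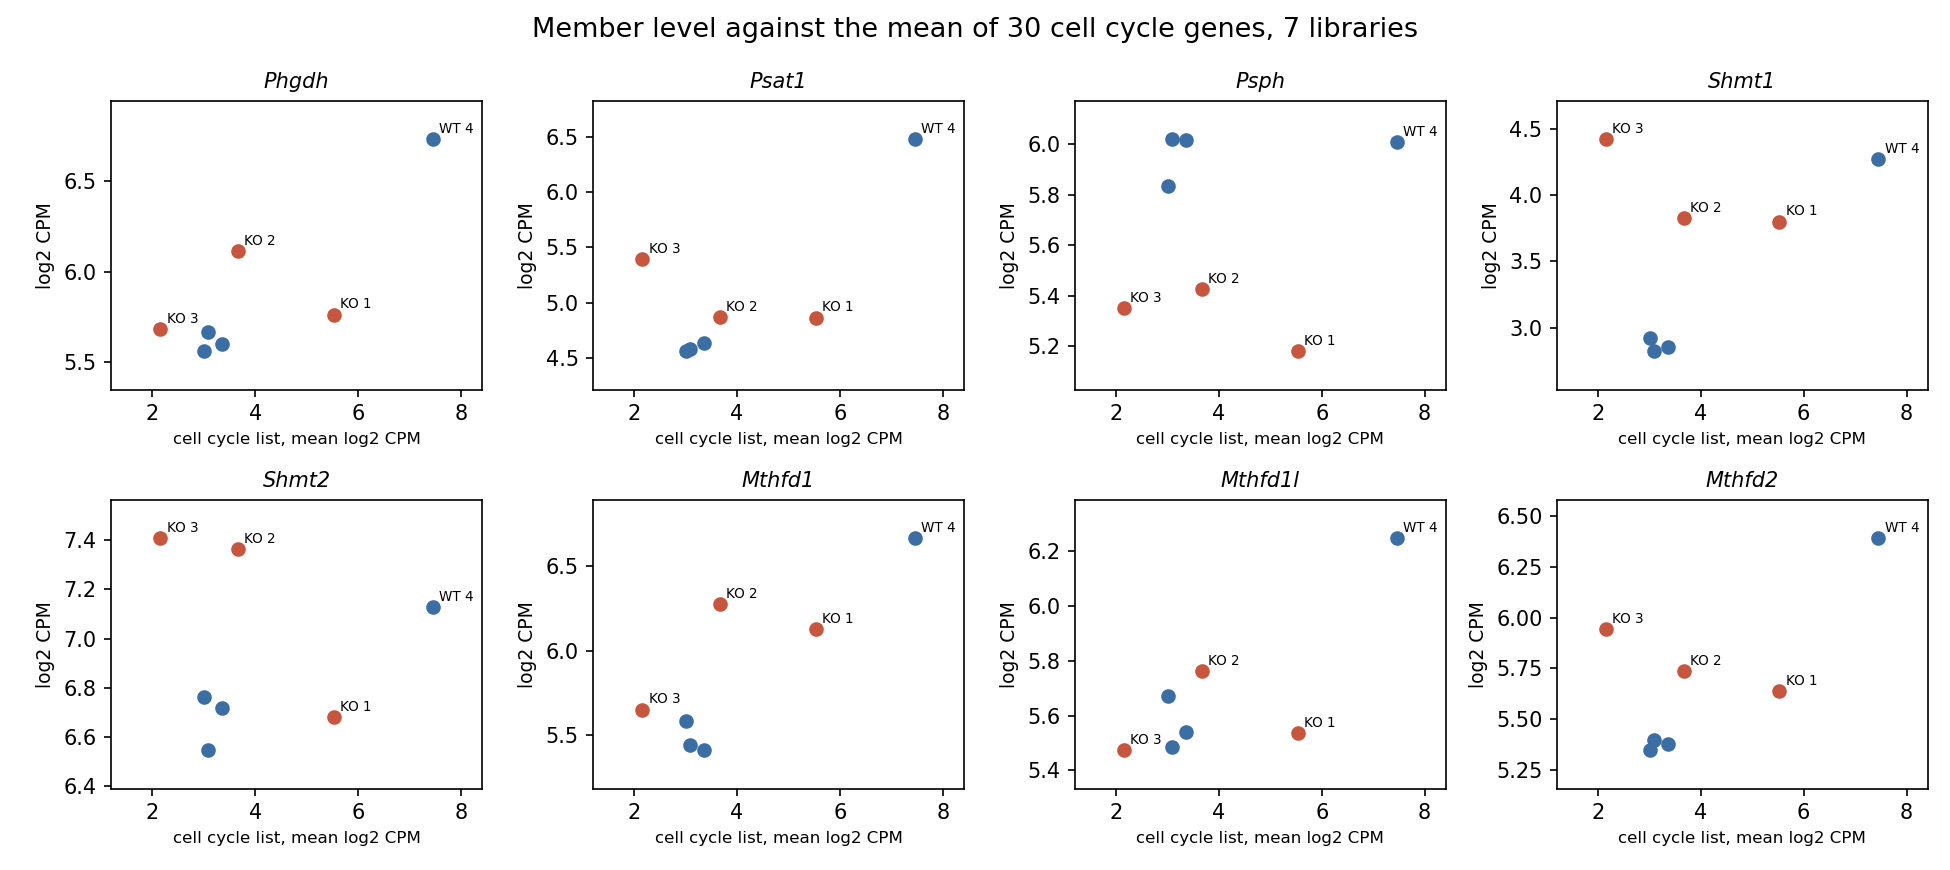
Level of each enzyme (y axis, log2 CPM) against the mean log2 CPM of 30 cell cycle genes (x axis) in the 7 libraries, WT in blue and KO in red; the 3 unlabelled points are WT replicates 1 to 3. WT replicate 4 lies at the far right at 7.45, and KO replicate 3, at 2.16 on the far left, is the lowest KO point for Phgdh, Mthfd1 and Mthfd1l and the highest for Psat1, Shmt1, Shmt2 and Mthfd2.

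Set against WT replicates 1 to 3 alone, every KO library was above all 3 for 5 of the 8 members (Phgdh, Psat1, Shmt1, Mthfd1 and Mthfd2) and below all 3 for Psph, where 14.5% of all genes were above and 15.8% below. These 5 are the members at 2-fold or more in WT replicate 4, which was set aside with earlier results known. The count for members thus depends on that choice. With all 7 libraries, 0 members had every KO library above every WT library, against 9.46% of all genes. In the fit that left out WT replicate 4, edgeR called 0 members, against 0.690% of all genes higher and 0.134% lower. The log2 differences were 0.57 ± 0.18 for Mthfd1 and 0.41 ± 0.13 for Mthfd2 (SE; edgeR adjusted p = 0.140 and 0.138). The fold over the mean of WT replicates 1 to 3 varied between KO libraries. For Shmt1 it was 1.91, 1.95 and 2.94 in KO replicates 1 to 3, and for Mthfd2 1.20, 1.28 and 1.48. For Mthfd1 it was highest in KO replicate 2, at 1.57, 1.74 and 1.13. For Psph it was 0.583, 0.692 and 0.657. Among the KO libraries, Psat1, Shmt1, Shmt2 and Mthfd2 were lowest in KO replicate 1 and highest in KO replicate 3. For Psat1, KO replicates 1 and 2 were nearly equal, at 29.1 and 29.3 CPM. Psph was lowest in KO replicate 1 and highest in KO replicate 2. The other 3 (Phgdh, Mthfd1 and Mthfd1l) were highest in KO replicate 2 and lowest in KO replicate 3. How often all genes ran in each order was not computed, and the part of other cell types in these values was not tested.

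The balance of mitochondrial and cytosolic enzymes was compared by ratios within each library, which do not depend on library scaling. Per kb of exon, Shmt2 exceeded Shmt1 by 18.2, 16.5, 17.9 and 9.04 times in WT replicates 1 to 4 and by 9.20, 14.5 and 9.90 times in KO replicates 1 to 3. The difference in mean log2 ratio, KO minus WT, was -0.44 (exact permutation test, two-sided, p = 0.229; Benjamini-Hochberg adjusted over 3 ratios p = 0.343; n = 3 and n = 4). WT replicate 4 had the lowest ratio of all libraries. Mthfd1l was at 1.10, 1.03, 1.07 and 0.748 times Mthfd1 in WT and at 0.665, 0.702 and 0.885 times in KO (log2 difference -0.39; two-sided exact permutation p = 0.0857, adjusted p = 0.257). Only WT replicate 4 overlapped the KO range there. Mthfd2 was at 1.24, 1.24, 1.08 and 1.05 times Mthfd1 in WT and at 0.907, 0.876 and 1.56 times in KO (log2 difference -0.10; two-sided exact permutation p = 0.771, adjusted p = 0.771). KO replicates 1 and 2 were below all WT libraries and KO replicate 3 above all of them. With 35 splits the smallest p possible was 0.0286.

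**Figure D4:**
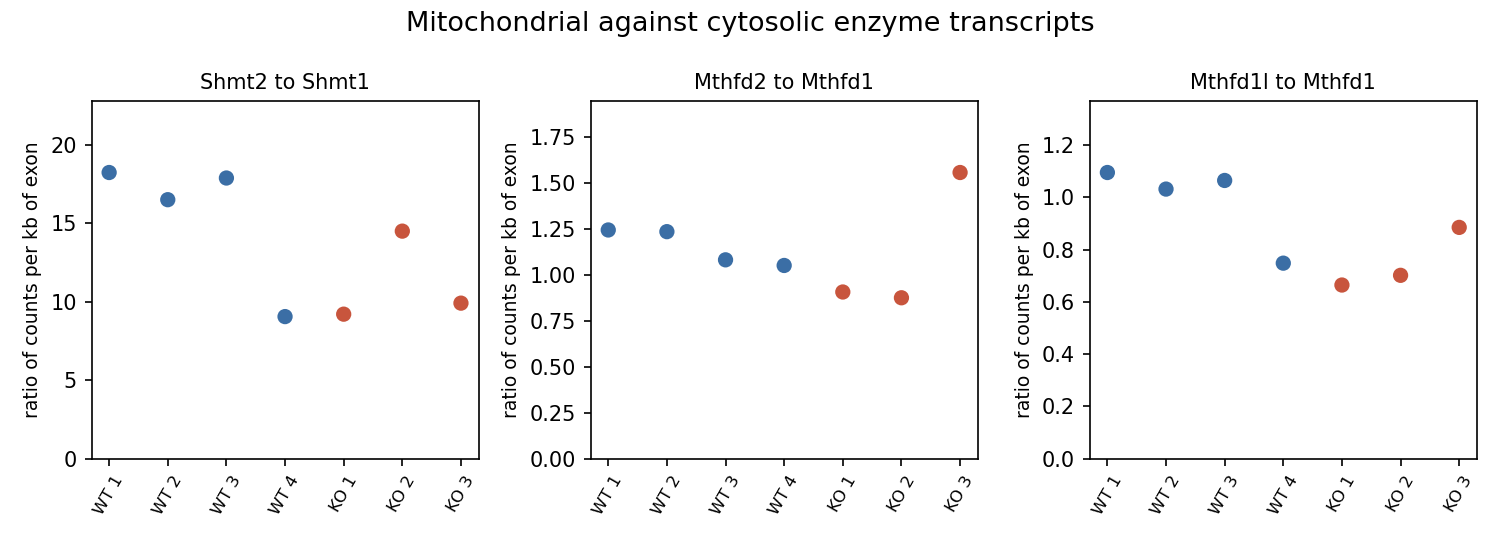
Ratio of counts per kb of exon (y axis, linear, from 0) of a mitochondrial to a cytosolic enzyme in each library, WT in blue and KO in red. For Shmt2 to Shmt1 the ratio is 16.5 to 18.2 in WT replicates 1 to 3, 9.04 in WT replicate 4 and 9.20 to 14.5 in KO.

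The other genes of the pathway were read from 7 lists with 65 measured genes of 75. None passed edgeR's test over all genes, 4 were higher and 5 lower at an unadjusted p under 0.05 (11.0% and 7.89% of all genes), and DESeq2 called 4 higher and 2 lower, against 7.13% and 3.61%. Every KO library lay above every WT library for 3 of the 65 and below for 4, where 9.46% and 9.03% of all genes did so. The median log2 difference of the 65 was -0.09, and that of all genes was -3.62e-05.

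Among folate enzymes and carriers 4 of 12 were above 0 and 8 below (median log2 -0.24). Ggh, which trims the glutamate tail of folates, was at 71.6, 86.5, 60.1 and 43.9 CPM across WT replicates 1 to 4, against 24.9, 15.3 and 41.8 CPM across KO replicates 1 to 3. Every KO value was under every WT value, KO replicate 3 only slightly (log2 -1.26 ± 0.37, SE; edgeR adjusted p = 0.141; DESeq2 adjusted p = 0.0168). Aldh1l1, which oxidises formyl-tetrahydrofolate in the cytosol, was nearly absent, at 0.0690, 0.0449, 0.0576 and 0.746 CPM in WT and 0.855, 5.56 and 3.20 CPM in KO. Each KO library was above each WT library with 2 to 44 counts in WT (fitted log2 3.78 ± 1.18, SE; edgeR adjusted p = 0.153; DESeq2 adjusted p = 0.0133). Slc25a32, the mitochondrial folate carrier, was at 48.9 ± 10.8 CPM over the KO libraries (SD, n = 3), against 60.5 ± 8.41 over the WT libraries (SD, n = 4). Tyms, the thymidylate synthase, was chosen after its values were seen: WT replicate 4 stood at 3.89 times the mean of the other WT libraries.

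Serine and glycine handling genes split 4 above and 5 below 0 (median log2 -0.09). Slc1a5, a carrier of neutral amino acids, was the most abundant, at 591 ± 87.0 CPM over the KO libraries (SD, n = 3), against 629 ± 122 over the WT libraries (SD, n = 4). Sfxn3, a sideroflexin of the family that carries serine into mitochondria, was at 162 ± 38.7 and 224 ± 51.5 CPM, and Dld, the dehydrogenase shared by the glycine cleavage system, at 106 ± 8.49 and 128 ± 15.6 CPM (KO and WT; SD, n = 3 and n = 4). In the methionine cycle 6 of 9 were above 0 (median log2 0.02). Ahcy, which clears S-adenosylhomocysteine, was at 17.7, 18.9, 17.3 and 32.8 CPM across WT replicates 1 to 4, against 9.73, 11.1 and 15.3 CPM in KO. Its KO libraries all lay below its WT libraries (log2 -0.85 ± 0.31, SE; edgeR adjusted p = 0.210). The subunits of S-adenosylmethionine synthetase, Mat2a and Mat2b, had overlapping libraries, at 285 ± 10.9 against 270.0 ± 32.1 CPM and 283 ± 24.7 against 367 ± 90.2 CPM in KO and WT (SD, n = 3 and n = 4).

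Genes of purine synthesis, a route that takes up one-carbon units in some of its steps, were above 0 for 8 of 12 (median log2 0.10). Pfas, the amidotransferase of the fourth step, was at 6.12, 4.73, 5.76 and 8.21 CPM in WT and 17.7, 14.8 and 8.01 CPM in KO, where KO replicate 3 lay just below WT replicate 4 (log2 1.12 ± 0.35, SE; edgeR adjusted p = 0.153; DESeq2 adjusted p = 0.0216). Paics, which acts later in the route, had the lower mean in KO, at 140 ± 12.4 CPM over the KO libraries (SD, n = 3), against 181 ± 21.8 over the WT libraries (SD, n = 4; log2 -0.37 ± 0.14, SE; edgeR adjusted p = 0.207). Its exons overlap those of Ppat on the opposite strand, which makes its level uncertain, like those of Mat2a (Particl) and Tk1 (Afmid), which overlap the gene in brackets. Impdh1, of guanine nucleotide synthesis, was at 138 ± 55.1 and 133 ± 16.0 CPM. Of pyrimidine and thymidylate genes 9 of 11 were below 0 (median log2 -0.38). Ctps2, a CTP synthase, was at 123 ± 20.4 and 157 ± 14.2 CPM, and Cmpk1, a nucleotide kinase, at 155 ± 31.7 and 202 ± 24.4 CPM in KO and WT (SD, n = 3 and n = 4). The median of that list moved to 0.08 without both KO replicate 1 and WT replicate 4. In Rrm2 and Tk1, chosen after their values were seen, WT replicate 4 stood at 23.4 and 19.7 times the mean of the other WT libraries.

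Of the 7 genes of serine use for lipids 2 were above 0 and 5 below (median log2 -0.16). Ptdss2, which makes phosphatidylserine, was at 16.1, 13.3, 16.4 and 11.0 CPM across WT replicates 1 to 4, against 41.6, 33.3 and 21.8 CPM across KO replicates 1 to 3 (log2 1.18 ± 0.27, SE; edgeR adjusted p = 0.087; DESeq2 adjusted p = 0.000851). Sptlc2, a subunit of the serine palmitoyltransferase that starts sphingolipid synthesis, was at 136, 135, 140 and 119 CPM in WT and at 86.2, 78.8 and 111 CPM in KO (log2 -0.52 ± 0.15, SE; edgeR adjusted p = 0.133; DESeq2 adjusted p = 0.0469). In both genes the KO and WT libraries did not overlap. Serinc3 was at 1494 CPM in KO replicate 1, against 331 and 508 CPM in KO replicates 2 and 3 and 599 ± 54.4 CPM in WT (SD, n = 4), and Serinc1 was at 157 ± 34.3 and 176 ± 43.9 CPM in KO and WT.

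Of the 5 regulators 3 were above 0 and 2 below (median log2 0.11). Myc, a driver of growth in activated T cells, was at 85.3, 60.6, 96.5 and 141 CPM across WT replicates 1 to 4, against 158, 330 and 186 CPM across KO replicates 1 to 3, without overlap (log2 1.23 ± 0.34, SE; edgeR adjusted p = 0.127; DESeq2 adjusted p = 0.00895). Atf4, whose protein is controlled largely at translation, was at 138 ± 19.2 CPM over the KO libraries (SD, n = 3), against 128 ± 23.3 over the WT libraries (SD, n = 4). Nfe2l2, which encodes a factor of the oxidative stress response, was at 104.5 ± 4.24 and 92.4 ± 11.3 CPM. Their KO and WT libraries overlapped. In the cell cycle list all 30 genes were below 0 with all libraries (median log2 -1.38). The median was 0.17 without both KO replicate 1 and WT replicate 4. WT replicate 4 was above each other WT library in all 30, against 38.0% of all genes. The list summed to 6627 CPM in WT replicate 4, 963 to 1068 CPM in WT replicates 1 to 3 and 932 to 1891 CPM in KO. Mcm6, Pcna and Mcm4, of DNA replication, averaged 218 ± 46.1, 79.8 ± 3.26 and 138 ± 15.2 CPM over the KO libraries (SD, n = 3), against 372 ± 146, 131 ± 61.8 and 188 ± 84.6 over the WT libraries (SD, n = 4).

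**Figure D5:**
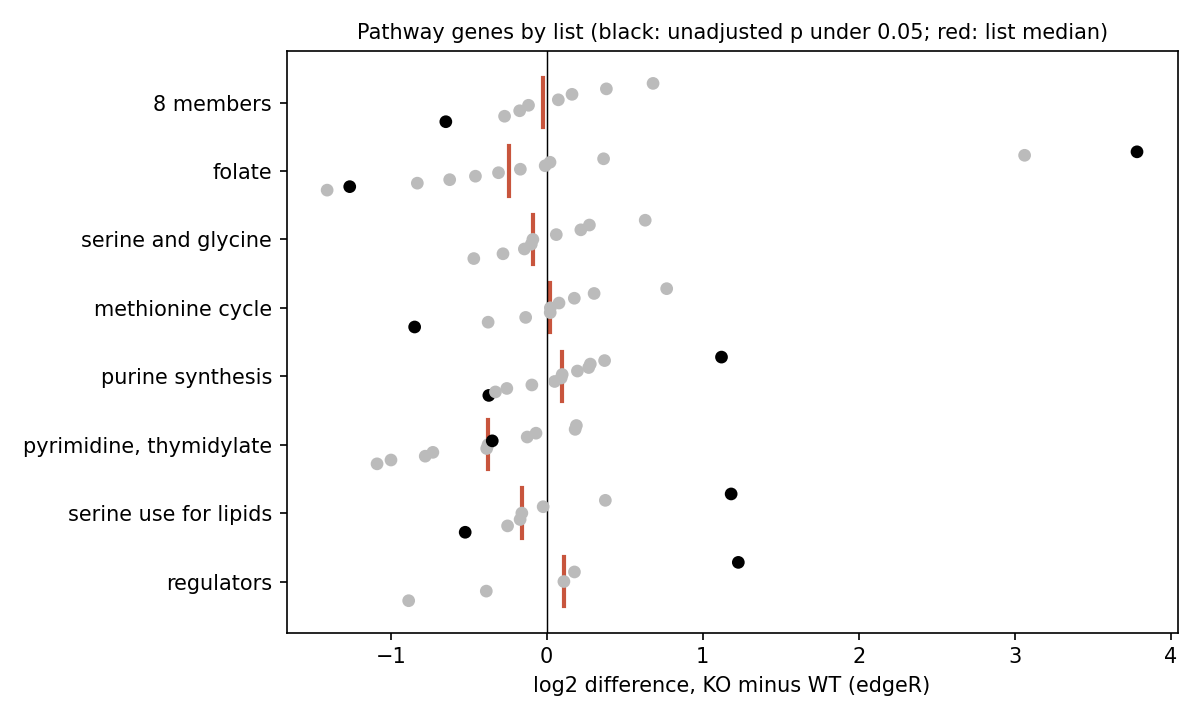
Log2 difference of KO minus WT (x axis) of each measured gene of the 8 members and the 7 pathway lists (rows), with black points at an unadjusted p under 0.05 and red bars at the list medians. Psph is the lowest member at -0.65, and the medians run from -0.38 in pyrimidine and thymidylate synthesis to 0.11 in the regulators.

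The genes most like the 8 members in their levels across the 7 libraries were sought among 8411 genes. The mean of the members, each scaled to the same spread, was most like Atxn10 (Pearson r = 0.996), Lsm4 (0.995), Smarcc1 (0.991), Hnrnpab (0.990) and Rsl24d1 (0.987). Without WT replicate 4 these values were 0.983, 0.978, 0.960, 0.955 and 0.946 over 6 libraries. Lsm4 and Hnrnpab encode RNA-binding proteins, Smarcc1 a subunit of a chromatin remodelling complex and Rsl24d1 a ribosome assembly factor. For Mthfd2 the closest were Pmvk (0.975), Ola1 (0.973), Gtf2f1 (0.972), Eif5a (0.971) and Akr1a1 (0.970), and for Phgdh Clta (0.982), Pebp1 (0.979), Polr2c (0.978), Ranbp1 (0.971) and Hnrnpa3 (0.970). Over the 6 libraries without WT replicate 4, r ran from 0.908 (Akr1a1) to 0.963 (Pmvk) for Mthfd2. For Phgdh it ran from 0.833 (Ranbp1) to 0.962 (Pebp1). These 6 libraries are among the 7 by which the genes were picked, so the values without WT replicate 4 are no separate check. The values describe 7 libraries in which genotype, depth and cell contents differ together, and nothing on shared function is read from them.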

How the data were processed

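Total RNA of 7 libraries of CD8 T cells (3 KO, 4 WT) was sequenced. Trim Galore 0.6.0, STAR 2.7.8, mm10 and DESeq2 are named in the submitters' processing notes; no source used here gives the counting tool, annotation, strand setting or filter. Raw counts for 16156 genes were deposited, as were log2 CPM values of those genes, which equalled edgeR's values (TMM, prior count 2) within 4.99e-09. Members were matched by symbol, and 2799 of 2810 rows with no symbol were named from GENCODE M21, which also gave coordinates and exon lengths.

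The comparison of KO and WT ran in R 4.3.3 with edgeR 4.0.16 (test of quasi-likelihood, genotype only, Benjamini-Hochberg over 16156 genes, threshold 0.05; filterByExpr removed 0 genes). Ratios used a prior count of 0.5. Promoter sequences are from RefSeq, GRCm38.p6. The members, gene lists and alternatives were chosen with earlier results of these data known, so no p is adjusted over a list alone. All members were named, and in each pathway list the 2 genes with the smallest p and the 2 most abundant. The genes most alike had a mean of at least 3 log2 CPM. The alternatives were RLE and upper-quartile scaling, other filters, DESeq2 1.42.0, limma 3.58.1 voom, edgeR's bias-adjusted fit, a replicate block and left-out libraries. The scripts were tested on simulated data. Before TMM scaling, 3 counts are worth 0.0397 CPM at the greatest depth (WT replicate 1) and 0.0801 CPM at the smallest (KO replicate 3).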

Additional observations from a re-analysis of the deposited data

Results flagged for a closer look

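In the 4 WT libraries 10 of 25 values tested had 1 library far from the other 3 (by Dixon's test for 4 values), where chance flags about 1 in 20. The values are not independent, because members, lists and ratios come from the same libraries. Every flag except that of Psph was in WT replicate 4, so they do not count as separate departures. WT replicate 4 was far above the others in Phgdh (6.73 log2 CPM), Psat1 (6.48), Shmt1 (4.27), Mthfd1 (6.67) and Mthfd2 (6.39), and in the means of the pyrimidine and thymidylate list (6.95 log2 CPM) and of the cell cycle list (7.45 log2 CPM). The same library was far below the others in the log2 ratio of counts of Shmt2 to Shmt1 (2.86) and of Mthfd1l to Mthfd1 (-0.42), before division by exon length. In Psph it was WT replicate 3 that lay apart, at 5.84 log2 CPM, below the other WT libraries and still above every KO library.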

How the results depend on the processing

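Scaling and filters on low counts changed no member's direction or call. edgeR called 0 genes higher and 0 lower with all libraries, while DESeq2 called 1036 and 525, limma voom with quality weights 860 and 272, and edgeR's bias-adjusted fit 497 and 77. Leaving out both KO replicate 1 and WT replicate 4 gave 864 and 668. Leaving out 1 library at a time gave 0 to 142 higher and 0 to 48 lower: 108 and 21 without WT replicate 4, 111 and 48 without KO replicate 1, 118 and 2 without KO replicate 2, 142 and 47 without KO replicate 3, and 0 and 0 without any other. Of the members 0 were called in any of these fits, and of the pathway lists 0 to 1 higher (Aldh1l1, without WT replicate 4). Of the members, DESeq2 and the bias-adjusted fit each called 0 higher and 1 lower (Psph, log2 -0.62 and -0.65), voom 1 higher (Shmt1, log2 1.14) and 1 lower (Psph, log2 -0.65), and the fit without both libraries 2 higher (Shmt1, log2 1.31, and Shmt2, log2 0.73) and 1 lower (Psph, log2 -0.55). Of the 65 pathway genes, DESeq2 called 4 higher and 2 lower, voom 3 and 2, and the fit without both libraries 3 (Aldh1l1, Myc and Gcsh) and 2 (Tyms and Rrm1).

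Phgdh, Psat1 and Mthfd1l turned from below to above 0 with voom (log2 0.26, 0.39 and 0.045), with the replicate block (0.24, 0.45 and 0.025), without both libraries (0.32, 0.59 and 0.078) and without WT replicate 4 (0.26, 0.48 and 0.033). Over all fits that left out 1 library, the log2 difference ran from -0.70 to -0.58 for Psph, from -0.26 to 0.26 for Phgdh, from -0.47 to 0.48 for Psat1, from -0.26 to 0.033 for Mthfd1l and from -0.027 to 0.41 for Mthfd2 (0.49 without both libraries), which was below 0 without WT replicate 1, 2 or 3 or KO replicate 3. The ratio of Mthfd2 to Mthfd1 ran from a log2 difference of -0.37 to 0.047, above 0 without KO replicate 1 or 2. In the replicate block WT replicate 4 has no KO library of its number, so it does not enter the difference. The block is therefore not a setting separate from leaving out WT replicate 4. The voom values of Phgdh, Psat1 and Mthfd1l also lay near those without WT replicate 4, and the weight that voom gave that library was not examined. Beyond which libraries entered the difference, the cause of these turns was not tested. The replicate block made no call. The numbers share no stated source, and the deviations of same-numbered KO and WT libraries correlated at -0.108, -0.0513 and 0.137, so they were not taken as pairs.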
